A study of Mus musculus with 10 samples.

Results

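Promoter contacts of double-mutant (DM) bone marrow progenitors were compared with those of wild-type (WT) bone marrow neutrophils in 4 promoter-capture Hi-C libraries, 2 per group, of the 10 libraries in the study. Here a contact joins a bait, the HindIII fragment of a captured promoter, to an other end, and has an interaction score of 5 or more in both replicates of a group. DM progenitors had 43,228 contacts on 9,141 baits and neutrophils had 25,622 on 6,746 baits, among 100,153 pairs listed for any of the 5 groups. The deposited progenitor and neutrophil lists, matched on the coordinates of bait and other end, had 14,093 pairs in common, and 9,732 of them were contacts in both groups.

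The DM libraries came from lineage-negative bone marrow cells (haematopoietic stem and progenitor cells, HSPC) of C57BL/6 mice with the genotype Npm1flox-cA/+;Flt3ITD/+;Mx1-Cre+. The neutrophils came from the bone marrow of WT C57BL/6 mice through a neutrophil isolation kit. The other groups, whose values are given beside the comparison, were HSPC of WT, Npm1flox-cA/+;Mx1-Cre+ (Npm1c) and Flt3ITD/+ (Flt3-ITD) mice on the same strain. Cre in the Npm1 lines is driven by the interferon-inducible Mx1 promoter, so recombination is not limited to a single blood lineage. Replicates were biological duplicates; ages, sexes and pooling of animals were not given in the labels. DM HSPC and WT neutrophils differ in both genotype and cell type, and these cannot be told apart in this comparison.

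A promoter can touch distant stretches of the same chromosome when chromatin folds into loops and domains, and such contacts often bring enhancers near the genes they act on. Granulocyte maturation runs from multipotent progenitors, which use stem-cell regulators such as Hox genes and Meis1, to short-lived, non-dividing neutrophils that carry granule proteins, chemokine receptors and adhesion molecules. The Npm1c mutation sends nucleophosmin to the cytoplasm and is known for sustained Hox gene expression, and the Flt3 internal tandem duplication keeps the FLT3 receptor and its STAT5 signalling active. Both occur together in acute myeloid leukaemia. A score in a bulk library cannot tell a contact present in fewer cells from a contact that is less frequent in each cell.

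The promoters of 5 genes on which the results turn are shown first, from RefSeq on GRCm38.p6 (mm10), 5′ to 3′ on the strand of the gene, from 250 bases before to 50 bases after the start. Retnlg, Klhl2 and Sgms2 are shown because their contacts or scores favoured neutrophils, Dse and Hoxb8 because their contacts favoured DM HSPC. Capitals mark matches, on either strand, to the C/EBP motif TTGCNNAA, the PU.1 and ETS motif AGGAAGT, the RUNX motif TGTGGT, a CTCF core AGGGGGC or the HindIII site AAGCTT, and each window shown has at most 1 match. The windows are chr16:48872358-48872657 on the plus strand for Retnlg, chr8:64849875-64850174 on the minus strand for Klhl2, chr3:131344859-131345158 on the minus strand for Sgms2, chr10:34207186-34207485 on the minus strand for Dse, and chr11:96281655-96281954 on the plus strand for Hoxb8.
Retnlg: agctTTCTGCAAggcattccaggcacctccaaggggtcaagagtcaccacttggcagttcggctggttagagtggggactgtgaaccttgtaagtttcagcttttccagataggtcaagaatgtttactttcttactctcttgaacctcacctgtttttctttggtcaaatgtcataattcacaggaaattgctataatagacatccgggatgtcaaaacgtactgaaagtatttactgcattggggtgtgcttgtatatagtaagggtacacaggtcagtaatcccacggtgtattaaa
Klhl2: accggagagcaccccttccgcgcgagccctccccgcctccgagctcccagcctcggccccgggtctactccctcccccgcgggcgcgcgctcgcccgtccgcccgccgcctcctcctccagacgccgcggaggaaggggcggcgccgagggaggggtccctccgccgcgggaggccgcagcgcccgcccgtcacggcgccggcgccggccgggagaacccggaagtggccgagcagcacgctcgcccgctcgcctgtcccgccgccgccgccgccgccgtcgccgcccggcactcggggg
Sgms2: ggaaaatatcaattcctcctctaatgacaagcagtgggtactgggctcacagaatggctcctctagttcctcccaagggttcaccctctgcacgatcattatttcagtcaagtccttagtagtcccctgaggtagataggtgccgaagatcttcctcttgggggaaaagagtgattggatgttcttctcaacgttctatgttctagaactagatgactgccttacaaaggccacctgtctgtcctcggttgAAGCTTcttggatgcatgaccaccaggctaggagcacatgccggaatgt
Dse: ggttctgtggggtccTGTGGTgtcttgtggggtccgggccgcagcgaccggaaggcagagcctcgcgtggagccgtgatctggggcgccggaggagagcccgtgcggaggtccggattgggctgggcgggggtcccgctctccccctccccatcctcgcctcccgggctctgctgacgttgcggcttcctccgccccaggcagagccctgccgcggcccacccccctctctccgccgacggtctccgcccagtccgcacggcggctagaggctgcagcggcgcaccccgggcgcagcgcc
Hoxb8: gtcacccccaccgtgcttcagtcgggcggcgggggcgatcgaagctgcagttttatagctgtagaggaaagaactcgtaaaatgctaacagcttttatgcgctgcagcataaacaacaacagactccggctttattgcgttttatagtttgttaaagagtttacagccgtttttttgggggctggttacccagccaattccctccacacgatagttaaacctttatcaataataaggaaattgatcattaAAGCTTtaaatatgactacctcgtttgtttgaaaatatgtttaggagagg

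The Retnlg window had a C/EBP match at position 5 from its 5′ end, read on the opposite strand, and the Dse window had a RUNX match at position 16. C/EBP matches were in 10.8% of the 32,851 RefSeq promoter windows of this length and RUNX matches in 16.8%; for the other motifs the shares were 9.35% for PU.1 and ETS, 10.6% for the CTCF core and 7.45% for HindIII. The Klhl2 window had none of the 5 sequences, which says only that these letters are not in this window. The Sgms2 and Hoxb8 windows each held a HindIII site near the transcription start, at positions 252 and 251. Their promoters are therefore cut there into separate fragments: the Sgms2 bait starts at 131344903, and the Hoxb8 bait ends at 96281905, where the bait of Hoxb7 begins 1 base further on.

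Replicates resembled each other more than the groups did. Over the 9,703 autosomal and X-linked pairs that were contacts in both groups, Spearman's rho across pairs was 0.559 between the DM replicates, 0.389 between the neutrophil replicates and 0.237 to 0.305 between libraries of different groups. Their median scores were 8.12 and 8.47 in DM HSPC and 8.08 and 8.09 in neutrophils. On the scale of log2 of the score plus 1, used for all differences here, the library medians differed by 0.03 (exact permutation test, two-sided p = 0.333, the smallest possible with 2 against 2). No read counts are given, library depths are thus unknown, and it was not stated whether the progenitor and neutrophil scores were made comparable.

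DM HSPC and neutrophils shared a minority of their contacts. The 9,732 shared contacts were 22.5% of the DM list (95% Wilson interval 22.1 to 22.9) and 38.0% of the neutrophil list (37.4 to 38.6); these intervals, like those below, cover counting error over pairs only. With other ends within 10 kb counted as the same, 41.6% of DM contacts and 57.8% of neutrophil contacts had a partner in the other list. Of the neutrophil contacts, 4,361 (17.0%) were in the progenitor list but below 5 in at least 1 DM replicate, and 11,529 (45.0%) were not in the progenitor list, which means below 5 in at least 1 replicate of every HSPC group. Only 5 of the 4,361 were at 0 in both DM replicates.

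The contacts that DM HSPC shared with neutrophils were also common in the other progenitors. The other lists held 30,921 contacts in WT, 37,062 in Npm1c and 45,413 in Flt3-ITD HSPC, against 43,228 in DM HSPC. Counts and shares of these groups, here and below, are to be read against these lengths. Of the shared contacts 58.8% reached 5 in both WT HSPC replicates, 62.6% in Npm1c and 76.2% in Flt3-ITD HSPC. Among the HSPC groups, 15.0% (1,464) were contacts of DM alone. Of the 33,496 DM contacts absent from neutrophils, 26.2%, 32.1% and 43.1% were contacts in WT, Npm1c and Flt3-ITD HSPC, and 44.6% (14,923) were DM contacts alone. Among the 20,000 strongest contacts of each HSPC group, 31.3% of those of WT, 29.2% of Npm1c, 31.7% of Flt3-ITD and 31.9% of DM were in the neutrophil list. The full lists, which differ in length, gave 25.7%, 22.4%, 22.2% and 22.5%, so DM HSPC stood close to WT and Flt3-ITD HSPC in the first comparison and to both single mutants in the other.

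More promoters had the larger number of contacts in DM HSPC, whose list was also the longer. Of 10,774 baits with a contact in either group, 6,882 (63.9%) had more in DM HSPC, 2,884 (26.8%) had more in neutrophils and 1,008 had equal numbers. When the DM list was cut to its strongest 25,622 contacts, a setting chosen after seeing the data, 4,098 of 9,201 baits (44.5%) had more in DM HSPC and 4,113 (44.7%) had more in neutrophils. The overlap was then 28.8% of each list (28.3 to 29.4). Numbers of contacts come from 1 joint list per group, so they are given without a test, and every count below is to be read against these background shares.

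DM contacts reached further than neutrophil contacts, and so did those of the other HSPC groups. The median distance between fragment midpoints was 204 kb in DM HSPC (quartiles 116 and 338) and 160 kb in neutrophils (quartiles 90.9 and 263), and it stayed at 205 kb in the DM list of equal length. It was 183 kb in WT, 200 kb in Npm1c and 205 kb in Flt3-ITD HSPC, so the longer reach was not particular to DM HSPC. Contacts of 200 to 500 kb made up 38.9% of all contacts in DM HSPC and 31.4% in neutrophils, and those of 50 to 100 kb made up 11.9% and 17.6%. Contacts beyond 1000 kb were 3.75% and 2.37%. Shared contacts had a median of 155 kb, those of DM alone 222 kb and those of neutrophils alone 163 kb. The other end was itself a bait for 26.7% of DM contacts, 31.6% of neutrophil contacts and 38.2% of shared contacts. Within the shared contacts, the mean log10 distance weighted by score differed by only 0.00285 between the groups (exact permutation test, two-sided p = 0.333).

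**Figure D1:**
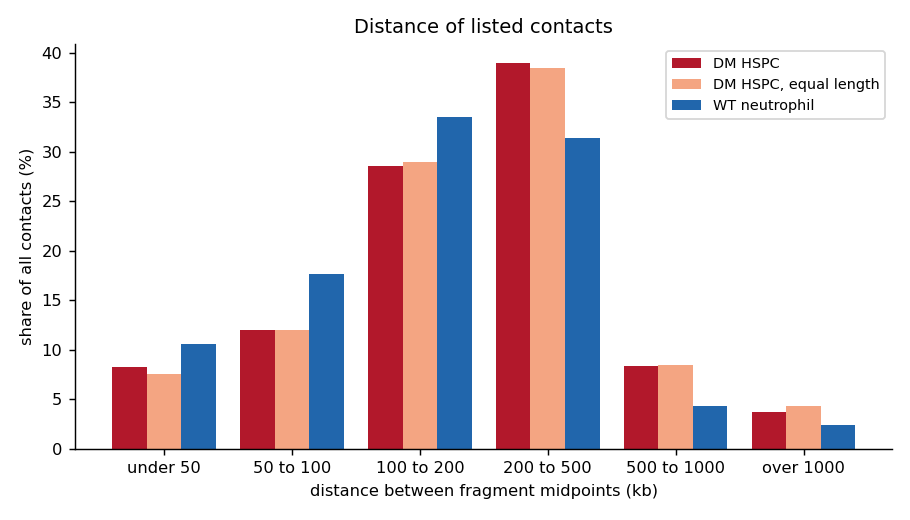
Share of all contacts (vertical axis, percent; the few between chromosomes are not drawn) in 6 classes of distance between fragment midpoints (horizontal axis, kb) for DM HSPC, the DM list cut to the length of the neutrophil list, and WT neutrophils; each bar is 1 joint list of 2 replicates and has no error bar. Neutrophil bars are higher in the 3 classes under 200 kb, and both DM bars are higher in the 3 classes above.

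Among baits with a gene name, those whose DM contacts most exceeded their neutrophil contacts lay mostly at loci on chromosomes 10 and 7. A bait without a gene name had 82 contacts in DM HSPC and 0 in neutrophils. On chromosome 10, Dse (dermatan sulfate epimerase) had 90 contacts in DM HSPC and 7 in neutrophils, and Tspyl1 (a nucleosome-assembly-like protein) had 76 and 5. On chromosome 7, Dmkn (dermokine, an epidermal secreted protein) had 89 and 3, Ffar3 (a short-chain fatty acid receptor) 97 and 24, Ffar1 (a long-chain fatty acid receptor) 64 and 7, Krtdap (a keratinocyte differentiation protein) 54 and 0, and Usf2 (a basic helix-loop-helix transcription factor) 82 and 31. Iah1 (a lipase-like hydrolase) had 57 and 0, Styk1 (a receptor-like kinase) 57 and 4, and Sdc1 (syndecan 1, a cell surface proteoglycan) 51 and 0. Neighbouring promoters share stretches of other ends, so these are not independent observations.

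Most of these promoters also had fewer contacts in WT HSPC than in DM HSPC, and the whole WT HSPC list was shorter too (30,921 against 43,228). The Dmkn bait had 8 contacts in WT, 42 in Npm1c and 59 in Flt3-ITD HSPC, and Krtdap had 8, 9 and 40. Dse had 9, 15 and 52, and Tspyl1 had 33, 35 and 72. Sdc1 had 14, 18 and 30. Iah1 went the other way: its 57 DM contacts compared with 76 in WT, 104 in Npm1c and 82 in Flt3-ITD HSPC, so that neutrophils alone lacked them. Styk1 had 42, 42 and 101. For Dmkn, Dse, Tspyl1, Krtdap and Sdc1, then, a count in WT HSPC stood well below that of DM HSPC, whereas for Iah1 it stood above.

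The contacts of these promoters covered whole stretches of neighbouring chromatin. The Dse contacts lay in chr10:33946072-34326770, with 23 in the body of Trappc3l and 18 in that of Dse itself. Of the 76 Tspyl1 contacts, 74 lay at lower coordinates, 22 of them in the Dse body and 19 in Trappc3l. The Dmkn contacts lay in chr7:30564649-31120797. The Sdc1 contacts lay in chr12:8297441-9033580, 49 of 51 at higher coordinates and 20 in the body of Wdr35, a ciliary transport gene. Styk1 differed in reach: its DM contacts had a median distance of 1739 kb and fell in the natural killer receptor cluster, with 8 in Klre1, 6 in Klri1, 5 in Clec12b and 4 in Klrd1. Its strongest was at chr6:129571548-129573275 in Klre1, with scores of 33.5 and 38.3 in the DM replicates.

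**Figure D2:**
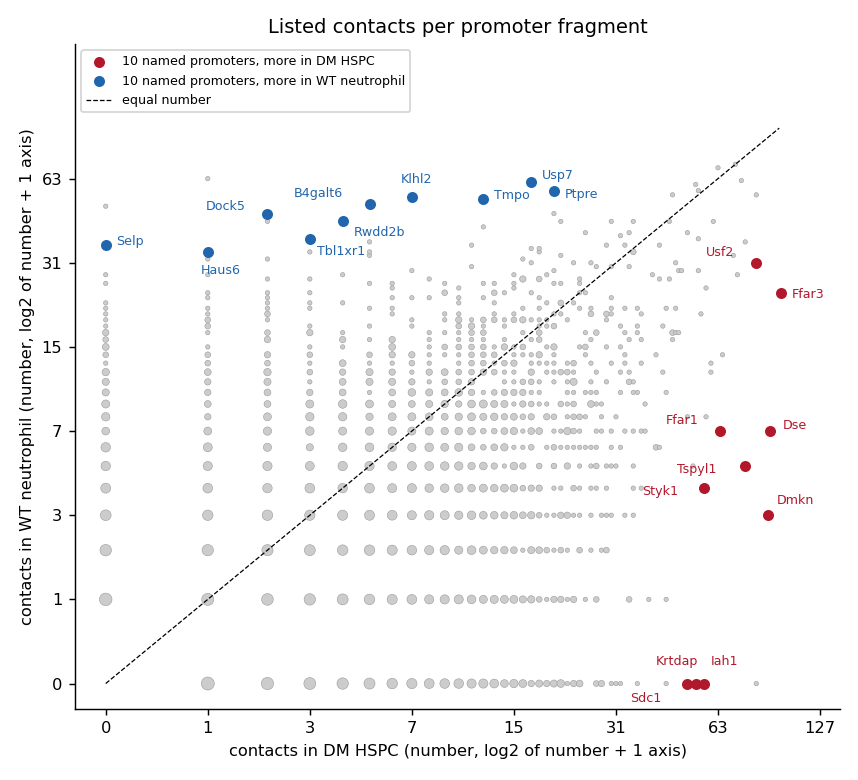
Number of contacts of each promoter fragment in DM HSPC (horizontal axis) against WT neutrophils (vertical axis), both on a log2 scale of the number plus 1; grey points grow with the number of baits they stand for, and red and blue points are the 10 named gene promoters in each direction. Krtdap, Iah1 and Sdc1 lie at 0 on the neutrophil axis with 54, 57 and 51 DM contacts, and Selp lies at 0 on the DM axis with 36 neutrophil contacts.

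Among gene promoters, the largest excess in neutrophils was at Klhl2, B4galt6, Dock5 and Usp7; baits without a gene name reached 63 contacts in neutrophils against 1 in DM HSPC, and 50 against 0. Klhl2, an adaptor of ubiquitin ligases, had 54 contacts in neutrophils and 7 in DM HSPC, with 31 of the 54 in its own gene body and 42 not in the progenitor list. Median scores of the Klhl2 contacts were 9.86 and 10.5 in the neutrophil replicates. WT, Npm1c and Flt3-ITD HSPC had 2, 7 and 10 contacts there. Dock5, a Rac guanine nucleotide exchange factor, had 47 contacts in neutrophils and 2 in DM HSPC, all 47 at lower coordinates and 38 in its own body, against 4, 6 and 7 in the other HSPC groups and 7 in DM replicate 2 alone. B4galt6, a lactosylceramide synthase, had 51 and 5, with 0, 0 and 1 in WT, Npm1c and Flt3-ITD HSPC. For these 3 promoters no progenitor group approached the neutrophil number.

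Usp7 (a deubiquitinase that acts on the p53 regulator MDM2) differed from them, since progenitors had many of its contacts. It had 61 contacts in neutrophils and 17 in DM HSPC, but 37 in WT, 55 in Npm1c and 48 in Flt3-ITD HSPC. Of the neutrophil contacts of Usp7, 34 were in the progenitor list with DM below 5 in at least 1 replicate, and their median DM score was 4.45, just under the threshold. DM replicates 1 and 2 taken alone had 23 and 36 contacts at Usp7. Ptpre, a receptor-type tyrosine phosphatase, had 57 and 20, and all 20 DM contacts were also neutrophil contacts; DM replicate 2 alone had 34. Of the 57, 37 lay in the Ptpre body and 7 in that of the neighbouring Mki67. Tmpo (lamina-associated polypeptide 2) had 53 and 12, with 12 of the neutrophil contacts in the body of Apaf1. Rwdd2b had 44 and 4, with 9 in the body of Bach1, a haem-regulated repressor, and DM replicate 1 alone had 10.

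Selp, which encodes the adhesion molecule P-selectin, had 36 contacts in neutrophils and 0 in every HSPC group, none of them in the progenitor list. Of these, 8 fell in the body of Sele, which encodes E-selectin, and 8 in that of Selp itself. Tbl1xr1, a subunit of nuclear co-repressor complexes, had 38 and 3, none in a gene body. Haus6, a subunit of the augmin complex of the mitotic spindle, had 34 and 1, with 10 in the body of Dennd4c. DM replicate 2 alone had 7 contacts at Tbl1xr1 and 3 at Haus6. With scores of 7 or more required, Dmkn had 58 contacts in DM HSPC and 0 in neutrophils, and Dse had 70 and 1.

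**Figure D3:**
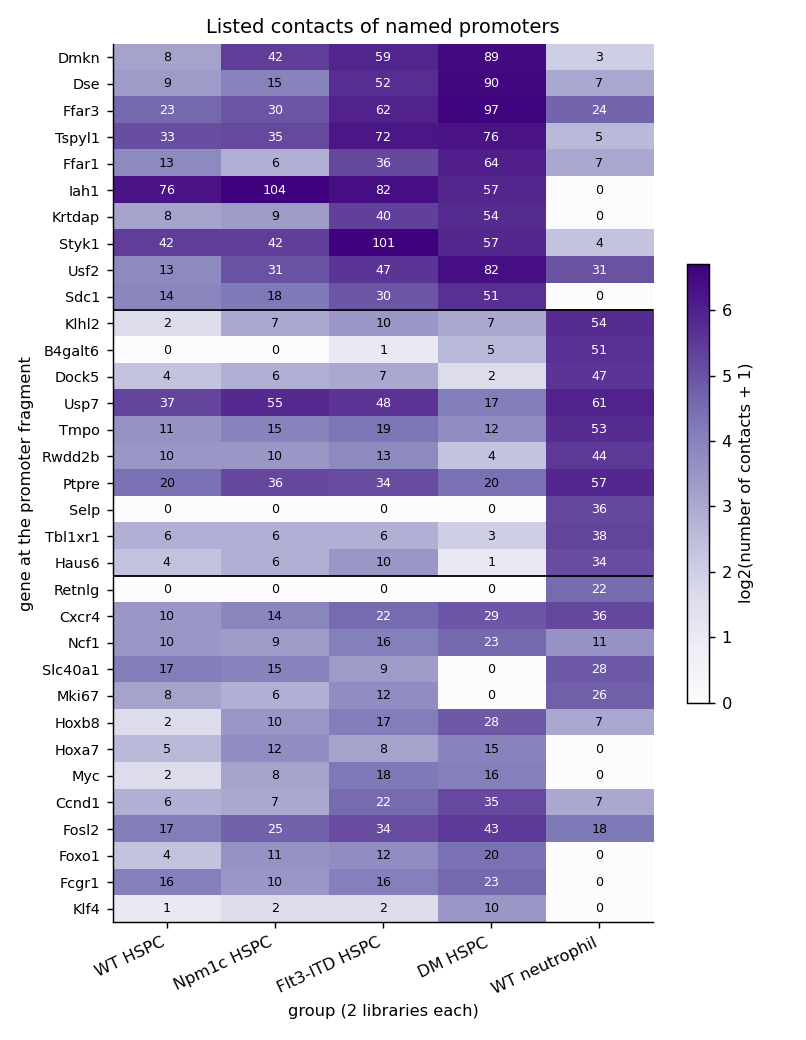
Number of contacts (cell values; colour, log2 of the number plus 1) of named promoters (rows) in the 5 groups of the study (columns): the 10 gene-named baits with the largest excess in each group compared, then members of the gene lists. The upper 10 have most contacts in DM HSPC or another HSPC group and the next 10 have most in WT neutrophils, where Selp is at 0 in all 4 HSPC groups.

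Scores were compared next at contacts present in both groups, which removes the difference in list membership. Log2 scores were averaged within every library for each bait with at least 3 such pairs, and 116 of 1,068 promoters (10.9%) differed in limma with Benjamini-Hochberg adjustment at 0.05. Of these, 74 (6.93%) were higher in DM HSPC and 42 (3.93%) were higher in neutrophils. The median difference was 0.66 among the 74 and -0.66 among the 42, against 0.05 over all 1,068 promoters. Quantile normalization gave 42 higher and 44 lower, so the split leans on the scaling. All 116 had replicates that did not overlap between groups, as did 575 of the 1,068 (53.8%). Without DM replicate 1 only 4 promoters were called and without DM replicate 2 0 were, whereas without either neutrophil replicate 92 and 86 were. A fit that took its spread from all 10 libraries called 10. All scores in this test are 5 or more by the choice of pairs, and some low values of named promoters lay just above 5. A Dse pair had 5.25 and 5.18 in neutrophils, and a Slc35f5 pair had 5.60 and 5.41 in DM HSPC. Such a floor can narrow the replicate spread of the lower group and limit the difference, and its effect on the calls was not tested.

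Of the 74 promoters higher in DM HSPC, 71 also had more contacts there, against 63.9% of all 10,774 baits with a contact in either group. That share includes baits with too few shared contacts for the score test, and the share among the 1,068 tested was not computed. Contacts are counted from the same scores, so the larger number is not separate support. The 74 fell into 57 loci when promoters within 500 kb were joined. A locus on chromosome 10 (chr10:33994501-34420300) held 8 of them, from 0.54 to 1.40, including Rwdd1, Trappc3l, Calhm6, Dse, Tspyl1, Tspyl4 and Nt5dc1. Another on chromosome 7 (chr7:30763637-30861670) held Dmkn, Ffar3 and Ffar1, from 0.53 to 1.26. A further locus (chr4:40263148-40703445) held Aptx, Ndufb6 and the shared promoter of Smim27 and Topors, from 0.62 to 0.87. Of the 74, the WT HSPC mean lay between DM and neutrophils for 43 and below both for 27.

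Tspyl1 (bait chr10:34281064-34284103, 4 pairs) had promoter means of 4.47 and 4.61 in DM HSPC and 3.10 and 3.18 in neutrophils. The difference was 1.40 (SE 0.16, limma adjusted p = 1.7e-05), and WT HSPC had 4.26 and 3.97, closer to DM HSPC. Its strongest pair reached Rwdd1, 265 kb away, with scores of 35.5 and 41.3 in DM HSPC, 8.25 and 8.89 in neutrophils and 27.2 and 19.5 in WT HSPC. Both DM libraries thus lay far above both neutrophil libraries at this pair. Dse (bait chr10:34198951-34209601, 5 pairs) had 3.89 and 4.25 in DM HSPC, 2.77 and 2.81 in neutrophils and 2.79 and 2.46 in WT HSPC, a difference of 1.27 (SE 0.17, adjusted p = 5.7e-05). Here WT HSPC was near the neutrophils, but the pairs had to reach 5 in DM HSPC and neutrophils and not in WT HSPC. The Dse pair with chr10:34280050-34281063, 76.3 kb away, scored 18.4 and 40.0 in DM HSPC and 5.25 and 5.18 in neutrophils, so the DM replicates spread widely but did not overlap the neutrophils.

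Dmkn (bait chr7:30763637-30765083, 3 pairs) had 4.06 and 4.15 in DM HSPC, 2.80 and 2.89 in neutrophils and 2.87 and 2.65 in WT HSPC, a difference of 1.26 (SE 0.16, adjusted p = 4.9e-05). Its pair with the fragment of Ffar3, 93.2 kb away, scored 21.0 and 21.6 against 5.84 and 8.07. Dmkn thus resembled Dse, with WT HSPC near the neutrophil values. Tspyl4 and Calhm6, both at the chromosome 10 locus, were higher by 1.23 and 1.09. The histone promoter shared by H2bc18 and H3c13 was higher by 0.94, Nt5dc1 by 0.90, Cipc, an inhibitor of the circadian CLOCK protein, by 0.88 and Aptx, a DNA strand-break repair enzyme, by 0.87.

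Ccnd1, which encodes cyclin D1 and drives entry into S phase, was also among the named promoters higher in DM HSPC. Its bait (chr7:144932206-144940810, 6 pairs) had means of 4.10 and 4.19 in DM HSPC, 3.25 and 3.22 in neutrophils and 3.26 and 2.83 in WT HSPC. The difference was 0.91 (SE 0.16, adjusted p = 0.00094). The pair with chr7:145241845-145245275, 307 kb away, scored 33.0 and 31.9 against 16.9 and 12.9, and that with chr7:145246507-145247952, in the body of Tpcn2, scored 19.8 and 21.1 against 7.90 and 8.84. Ccnd1 had 35 contacts in DM HSPC and 7 in neutrophils, and 6, 7 and 22 in WT, Npm1c and Flt3-ITD HSPC; 20 of the 35 were in Tpcn2, a lysosomal channel gene.

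**Figure D4:**
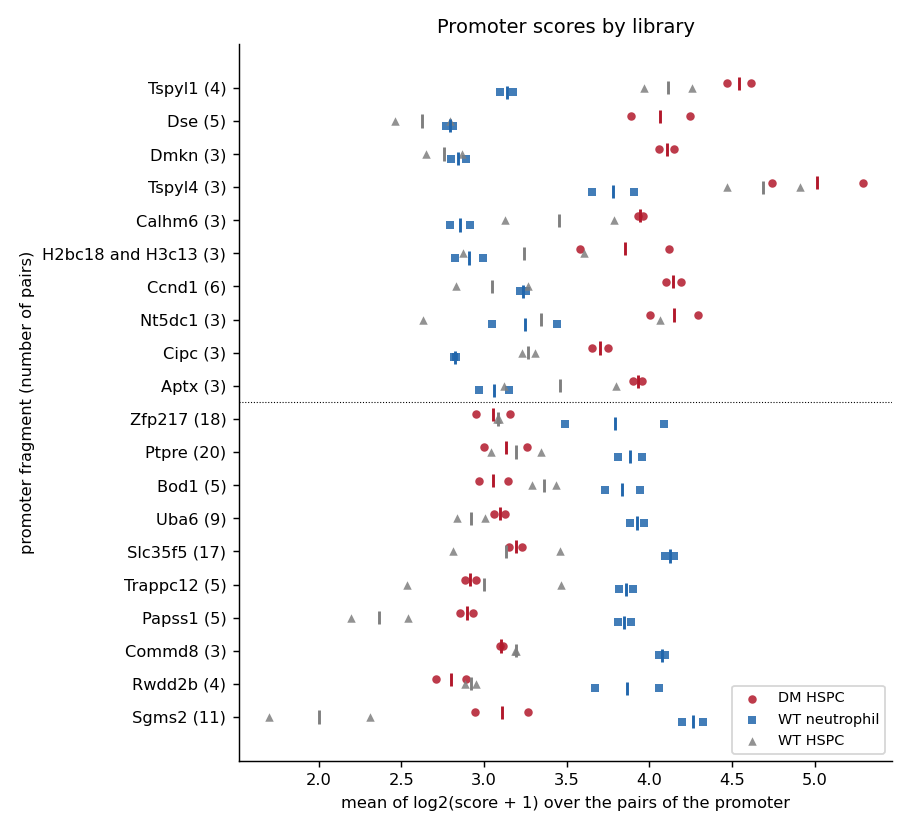
Log2 of the score plus 1, averaged for each of the 20 named promoters (horizontal axis), in each DM HSPC, WT neutrophil and WT HSPC library (points, with short lines for group means). DM points lie right of neutrophil points for the upper 10 promoters and left of them for the lower 10, with no overlap, as the choice of these promoters required.

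The 42 promoters higher in neutrophils fell into 34 loci. Of the 42, 38 also had more contacts in neutrophils, against 26.8% of all baits with a contact. That share is again not limited to the promoters tested, and contacts are again counted from the same scores. The WT HSPC mean lay below both groups for 27 of the 42, which puts it nearer to DM HSPC, and between them for 15. It was nearer to DM HSPC for 40 in all, and for 24 of the 74 promoters higher in DM HSPC. WT HSPC did not have to reach 5 at these pairs, which can lower its mean, so nothing further is read from these counts. Sgms2, a sphingomyelin synthase, led the 42. Its bait (chr3:131344903-131348197, 11 pairs) had 2.95 and 3.27 in DM HSPC, 4.20 and 4.32 in neutrophils and 2.31 and 1.70 in WT HSPC. The difference was -1.15 (SE 0.17, limma adjusted p = 0.00017), and the bait had 36 contacts in neutrophils and 11 in DM HSPC. This bait is 1 of the fragments made by the HindIII cut in the Sgms2 promoter shown above. The pair with chr3:131502452-131504528, 157 kb away, scored 5.10 and 6.25 in DM HSPC and 25.1 and 15.7 in neutrophils. Papss1, a sulfate donor synthase at the same locus, had 2.93 and 2.86 against 3.81 and 3.89, a difference of -0.95 (adjusted p = 0.00072). Its pair with chr3:131315457-131318781 scored 5.62 and 5.25 against 17.6 and 22.6.

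Rwdd2b (bait chr16:87436788-87441841) was lower in DM HSPC by -1.07 (adjusted p = 0.0005), with its pair to chr16:87748234-87749657 at 6.67 and 6.06 against 17.2 and 17.3. Slc35f5, a solute carrier, had 17 pairs, 3.23 and 3.15 in DM HSPC and 4.15 and 4.09 in neutrophils, a difference of -0.93 (adjusted p = 0.00084). The pair of Slc35f5 with chr1:125408494-125417096, in the body of the actin nucleator gene Actr3, scored 7.85 and 7.58 against 25.0 and 21.4. Ptpre (bait chr7:135534813-135542570, 20 pairs) had 3.00 and 3.26 in DM HSPC, 3.81 and 3.96 in neutrophils and 3.35 and 3.04 in WT HSPC, a difference of -0.75 (SE 0.17, adjusted p = 0.0058). Its pair with chr7:135623965-135628873 inside its own body, 87.7 kb away, scored 13.2 and 14.3 against 26.9 and 32.2. For each of these 5 promoters every pair was higher in neutrophils.

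The other named promoters higher in neutrophils were Commd8 (-0.97), Trappc12 (-0.94), Uba6 (-0.83), Bod1 (-0.78) and Zfp217 (-0.74). Uba6 encodes a ubiquitin-activating enzyme, and its pair with the fragment of Cenpc1, 105 kb away, scored 8.88 and 6.93 in DM HSPC and 20.0 and 28.4 in neutrophils. Of the pairs of Zfp217, a zinc-finger repressor, 16 of 18 were higher in neutrophils, and of those of Uba6 8 of 9.

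Other loci also held more than 1 called promoter. Besides those above, loci higher in DM HSPC paired the histone promoter of H2bc9 and H3c7 with that of H4c3 on chromosome 13 (0.78 and 0.75), and the shared promoter of the p38 kinases Mapk11 and Mapk12 with that of the semaphorin receptor Plxnb2 on chromosome 15 (0.87 and 0.53). They also paired Fosl2 and Vcpkmt each with an unnamed bait nearby, and the promoter shared by Lyl1 and Trmt1 with Syce2 (0.61 and 0.55). In neutrophils, Rab27a, a small GTPase of granule release, lay in a locus of 3 baits with Pigb and Pigbos1 (chr9:72967279-73049182, from -0.72 to -0.57). Apaf1, the scaffold of the apoptosome, shared its promoter with Ikbip and its locus with Tmpo (-0.59 and -0.54), and Clrn3 lay beside Ptpre (-0.67 and -0.75). Rps7 lay beside Trappc12, a Parp10 bait beside the bait shared by Parp10 and Plec, and Rwdd2b with an unnamed bait.

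The pairs with the highest scores in all 4 libraries included histone promoters and Bcl2l1. The histone promoters of H2ac10, H3c8 and H4c8 reached those of H2ac11 and H4c9 on chromosome 13, 1487 kb away, with scores of 49.0 and 62.9 in DM HSPC and 33.3 and 39.0 in neutrophils. Bcl2l1, which encodes the survival factor BCL-XL, paired with H13, 169 kb away, at 46.6 and 46.1 in DM HSPC, 29.4 and 27.5 in neutrophils and 39.7 and 28.5 in WT HSPC. Each of these pairs scored higher in both DM libraries than in either neutrophil library, but neither passed the test of single pairs.

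Single pairs gave few calls. None of the 9,703 pairs at 5 or more in both groups (0%) differed in limma after adjustment, and 1,440 had an unadjusted p under 0.05, 890 of them higher in DM HSPC. Over all 14,051 autosomal and X-linked pairs in both deposited lists, 3 (0.0214%) were higher in neutrophils and none was higher in DM HSPC, with 2,619 at an unadjusted p under 0.05. That set admits pairs low in DM HSPC and none low in neutrophils, so a pair near 0 in DM HSPC could only come out higher in neutrophils, and nothing is read from these calls beyond the scores themselves. Each of the 3 calls was lost without either neutrophil replicate, without DM replicate 2 and after quantile normalization.

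The 3 pairs were at the promoters of Cnr2, of H1f5 with H3c11, and of Zfp68. Cnr2, the cannabinoid receptor of immune cells, paired with a fragment in Fuca1 (chr4:135918940-135921488), 26.6 kb away, at 0 in both DM replicates and at 12.5 and 11.6 in neutrophils. WT HSPC were at 0 there too, while Npm1c HSPC were at 7.84 and 11.0. The histone promoter of H1f5 and H3c11 paired with the one of H2ac6 and H2bc4 (chr13:23678239-23691125), 1902 kb away, at 1.22 and 1.52 in DM HSPC and 21.6 and 21.8 in neutrophils. WT HSPC were at 6.21 and 14.4, above both DM libraries. Zfp68 paired with the promoter of Ap4m1 and the replication helicase gene Mcm7 (chr5:138164048-138172521), 446 kb away, at 0 in both DM libraries and 7.18 and 6.27 in neutrophils.

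Gene lists of blood lineages and pathways were then described by their contacts, beside the same counts over all gene-bearing baits. Those baits had 34,910 contacts in DM HSPC and 20,504 in neutrophils, a DM share of 63.0%, and 50.2% with lists of equal length. Of 8,543 such baits 5,473 (64.1%) had more in DM HSPC and 2,253 (26.4%) had more in neutrophils; at equal length 3,284 (44.8%) and 3,264 (44.5%) of 7,337 did.

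Mature neutrophil genes leaned to neutrophils against this background. Of 54 genes in the list 36 had a bait and their 33 baits with a contact had 186 contacts in DM HSPC and 197 in neutrophils, a DM share of 48.6%, or 35.0% at equal length. Even so, 18 of the 33 baits had more contacts in DM HSPC and 10 had more in neutrophils; at equal length 8 and 18 did. None of the 5 promoters with enough pairs for a score test was called.

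Retnlg, a resistin-like secreted protein of neutrophils whose promoter is shown above, had 22 contacts in neutrophils and 0 in all HSPC groups. They lay in chr16:48612651-48828540, all at lower coordinates than the bait and 13 in the body of Trat1. The strongest, at chr16:48787392-48794439, scored 11.4 and 10.5 in the neutrophil replicates. Cxcr4, the chemokine receptor that retains neutrophils in the marrow, had 36 contacts in neutrophils and 29 in DM HSPC, 18 of them shared. Its promoter score difference was -0.11 (limma adjusted p = 0.73), and WT HSPC had 10 contacts. Ncf1, a subunit of the NADPH oxidase, leaned the other way, with 23 in DM HSPC and 11 in neutrophils and a difference of 0.36 (adjusted p = 0.18).

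The marker list of neutrophils gave a mixed picture. Of its 10 genes 7 had a bait with a contact, 39 contacts in DM HSPC and 46 in neutrophils, and Retnlg was the only promoter with more in neutrophils. Camp, the cathelicidin gene, was at 0 in neutrophils and at 1 in DM HSPC; Ltf, Lcn2 and Mmp9 had no bait with a contact. The 8 progenitor markers had 6 baits with 18 DM and 10 neutrophil contacts, 5 with more in DM HSPC. Meis1, the Hox cofactor, had 5 in DM HSPC, 0 in neutrophils and 0, 3 and 3 in WT, Npm1c and Flt3-ITD HSPC; Sox4 had 4 and 7. These are contacts, not expression, and they do not establish the identity of the cells.

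Primary granule genes, which are made early in granulocyte maturation, had 68 contacts in DM HSPC and 30 in neutrophils (DM share 69.4%, 56.5% at equal length), with 7 of 10 baits higher in DM HSPC and 2 in neutrophils. Elane (neutrophil elastase) had 11 in DM HSPC and 5 in neutrophils and Nkg7 had 12 and 1. None of their 3 promoters tested on scores was called. Myeloid transcription factors had 105 and 58 (64.4%, 57.0% at equal length). Among them Fosl2, an AP-1 subunit, had 43 in DM HSPC and 18 in neutrophils, 18 of the 43 in Babam2 and 10 in Rbks, and its promoter score was higher in DM HSPC by 0.63 (limma adjusted p = 0.015). Bcl6, a transcriptional repressor, had 14 and 3, and Cebpa, the granulocyte master regulator, 6 and 1. Ets2 had 3 and 10.

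Stem and progenitor genes had 112 contacts in DM HSPC and 49 in neutrophils, a DM share of 69.6% (58.1% at equal length), with 16 of 21 baits higher in DM HSPC and 3 in neutrophils. Of 3 promoters tested on scores, 2 were higher in DM HSPC: Hhex, a homeobox regulator of blood progenitors, by 0.72 (limma adjusted p = 0.0083), and Lyl1, a basic helix-loop-helix factor close to Tal1, by 0.61 (adjusted p = 0.024). The Lyl1 call was lost after quantile normalization (0.55, adjusted p = 0.058). Hhex had 16 contacts in DM HSPC and 5 in neutrophils, and Lyl1 had 18 and 5, against 9 and 18 in WT HSPC. Cd93, a progenitor surface receptor, had 23 and 12, with a score difference of 0.11 (adjusted p = 0.75). Hlf, a stem-cell leucine zipper factor, had 8 and 0, but none of the 8 was left in the DM list of equal length.

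Hox genes and their cofactors, the known targets of mutant nucleophosmin, had 83 contacts in DM HSPC and 11 in neutrophils. The DM share was 88.3%, or 82.3% at equal length, and all 12 baits with a contact had more in DM HSPC. Hoxb8 had 28 and 7, and all 7 were also DM contacts. All 28 were in the body of the adaptor gene Skap1 (chr11:96522802-96752061), as were the 11 of Hoxb7, whose bait begins at the HindIII site in the Hoxb8 promoter shown above. Hoxb7 had 3 in neutrophils. The shared bait of Hoxa3 and Hoxa7 had 15 and 0, over chr6:51170426-51881642 with 5 in Snx10, and Hoxa11 had 6 and 0. WT, Npm1c and Flt3-ITD HSPC had 2, 10 and 17 contacts at Hoxb8, 5, 12 and 8 at Hoxa3 and Hoxa7, and 1, 7 and 4 at Hoxa11. Where Hoxb8 contacts were present in both groups their scores were close, with a difference of 0.02 (limma adjusted p = 0.96).

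Genes of FLT3 and STAT5 signalling had 186 contacts in DM HSPC and 65 in neutrophils, a DM share of 74.1% (67.3% at equal length), with 15 of 21 baits higher in DM HSPC and 5 in neutrophils. Ccnd1, described above, was the only 1 of 4 promoters tested that was called. Bcl2, the survival factor, had 21 and 2 and Spred1, a Ras pathway inhibitor, 20 and 2, against 9 and 3 in WT HSPC. Myc, the growth-promoting transcription factor, had 16 contacts in DM HSPC and 0 in neutrophils, all in chr15:63608115-63718098 at a median distance of 1674 kb and none in a gene body. Its strongest, at chr15:63642756-63651558, scored 12.3 and 13.1 in the DM replicates. WT, Npm1c and Flt3-ITD HSPC had 2, 8 and 18 contacts of Myc. Dusp6, a MAP kinase phosphatase, leaned to neutrophils with 7 in DM HSPC and 18 in neutrophils.

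**Figure D5:**
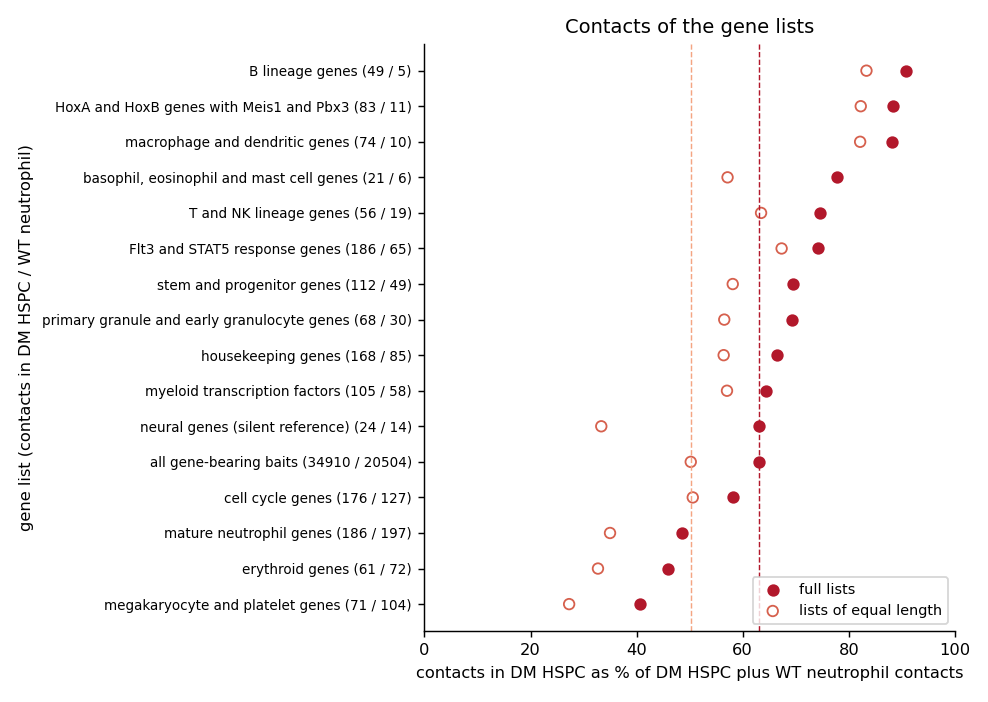
DM share of all contacts (horizontal axis, percent) for each gene list, with the full DM list (filled) and with the DM list cut to the length of the neutrophil list (open); the vertical lines mark the shares over all gene-bearing baits, 63.0% and 50.2%. Hox genes, B-cell genes and macrophage genes lie right of the lines, and megakaryocyte, erythroid and mature neutrophil genes lie left.

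Cell cycle genes were close to the background, with 176 contacts in DM HSPC and 127 in neutrophils (58.1%, 50.6% at equal length), though single members differed in both directions. Of 7 promoters tested on scores, Ccnd1 was higher in DM HSPC and the promoter shared by Aurka, a mitotic kinase, and Cstf1 was lower, by -0.61 (limma adjusted p = 0.020). Mki67, the proliferation marker, had 26 contacts in neutrophils and 0 in DM HSPC, with 21 of them in the body of its neighbour Ptpre. DM replicate 2 alone had 7 contacts there and replicate 1 had 0, and 12 of the 26 were listed in progenitors with a median DM score of 4.15. Its strongest, at chr7:135552934-135555667, scored 4.79 and 5.86 in DM HSPC and 16.8 and 14.6 in neutrophils. WT, Npm1c and Flt3-ITD HSPC had 8, 6 and 12 contacts at Mki67. Rrm2, a ribonucleotide reductase subunit, had 20 in DM HSPC and 3 in neutrophils, below the 38 of WT HSPC.

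Erythroid and megakaryocyte lists had DM shares below the background. Erythroid genes had 61 contacts in DM HSPC and 72 in neutrophils (45.9%, 32.7% at equal length), with more contacts in DM HSPC at 4 of 12 baits and in neutrophils at 3; at equal length 1 and 8 did. Of these contacts 28 in neutrophils and 0 in DM HSPC were at Slc40a1, the iron exporter ferroportin. The Slc40a1 pair with chr1:45824639-45828993, 99.5 kb away, scored 1.92 and 3.90 in DM HSPC, 40.4 and 18.8 in neutrophils and 8.52 and 9.22 in WT HSPC. Slc40a1 had 17, 15 and 9 contacts in WT, Npm1c and Flt3-ITD HSPC, so DM HSPC had the fewest of all groups.

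Megakaryocyte genes had 71 and 104 contacts (40.6%, 27.3% at equal length), with 7 of 13 baits higher in DM HSPC and 5 in neutrophils, or 3 and 8 at equal length. Selp, described above, had 0 and 36. The bait of the platelet chemokines Pf4 and Ppbp had 0 in DM HSPC and 12 in neutrophils, among them 3 in Rassf6, 1 in Cxcl1 and 1 in Cxcl2, and 0 in the other HSPC groups. Thbs1, thrombospondin 1, had 4 and 16. Cd9, a platelet tetraspanin, had 22 and 7, with 9 of the 22 in the body of Vwf. No promoter of this list was called among 3 tested.

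Lists of other blood lineages that lineage-negative marrow or a neutrophil isolate could also hold leaned to DM HSPC. B-cell genes had 49 contacts in DM HSPC and 5 in neutrophils (90.7%, 83.3% at equal length), 11 of 12 baits with more in DM HSPC; Foxo1, a forkhead factor, had 20 and 0, Cd72 11 and 2, and Ebf1 3 and 0. Macrophage and dendritic cell genes had 74 and 10 (88.1%, 82.1% at equal length), 13 of 14 baits with more in DM HSPC; Fcgr1, the high-affinity Fc receptor, had 23 and 0 and Klf4, a monocyte transcription factor, 10 and 0. WT HSPC had 16 contacts at Fcgr1 and 1 at Klf4. Fcgr1 thus held 23 of the 74 DM contacts. Its strongest, with chr3:96500015-96503313, ended at a fragment that the nearby histone promoter of H2bc18 and H3c13 also contacted. T and NK genes had 56 and 19 (74.7%, 63.5% at equal length), with Klrb1c at 22 and 7, and basophil, eosinophil and mast cell genes had 21 and 6 (77.8%, 57.1% at equal length), with Siglecf at 11 and 1. The part of other cell types in any result here was not tested.

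The 2 comparison lists gave the scale of such leanings. Neural genes, not used in blood, had 24 contacts in DM HSPC and 14 in neutrophils (63.2%, 33.3% at equal length), and housekeeping genes had 168 and 85 (66.4%, 56.4% at equal length). Among the latter, Tbp, the TATA-binding protein, had 27 and 7 and Ppia, cyclophilin A, had 24 and 3. None of the 4 housekeeping promoters tested on scores was called. At equal length the neural share, from 7 DM contacts, was near those of mature neutrophil genes (35.0%) and erythroid genes (32.7%). The housekeeping share was near those of primary granule genes (56.5%), myeloid transcription factors (57.0%) and stem and progenitor genes (58.1%). It was also near that of basophil, eosinophil and mast cell genes (57.1%). At equal length, leanings of this size were thus not particular to those lists.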

How the data were processed

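Promoter-capture Hi-C of HindIII-digested bone marrow chromatin was compared between 2 DM HSPC and 2 WT neutrophil libraries. Per the file headers, the deposited files give a score for each pair of bait and other end and library, and a distance, another quantity, in bp. The score is deposited by the authors as never negative; neither caller nor normalization is given in the sources used here, and the build is mm10, per the submitters' processing notes. Every listed HSPC pair reaches 5 in each replicate of some HSPC group, and every neutrophil pair in each neutrophil replicate.

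Scores were matched on coordinates, transformed to log2(score + 1) and fitted with limma 3.58.1 in R 4.3.3 (two-sided, Benjamini-Hochberg, 0.05), leaving out 42 pairs on Y or unplaced sequence. Promoters were means over at least 3 pairs. The fit was tested on simulated data. Baits were named where a RefSeq promoter start lies in them, or, for the 4,395 genes without a promoter entry, either gene end. Other ends were named from RefSeq gene intervals, without exons. Named items are the 10 largest in each direction, and up to 4 members of each gene list. Those of the score test had to have non-overlapping groups and to keep their direction after quantile normalization. Some list members are not reported here. Members and lists were chosen with earlier results of these data known. Alternatives were other scaling, pseudocounts, thresholds, fits and left-out libraries. Depth is unknown, so the spread between replicates limits the precision.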

Additional observations from a re-analysis of the deposited data

How the results depend on the processing

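With scores of 7 or more, the overlap was 20.4% of the DM list and 35.5% of the neutrophil list, with 3,537 and 1,472 baits favouring DM HSPC and neutrophils. With other ends within 10 kb joined it was 41.6% and 57.8%, and with equal lists 28.8% of each, with 4,098 baits favouring DM HSPC. Leaving out a DM replicate gave 20.6% of the DM list in both cases and 43.2% to 44.1% of the neutrophil list. The median shift kept its sign, at 0.02 with a pseudocount of 5, 0.05 with scores of 7 or more, and 0.01 to 0.06 with 1 library left out; after quantile normalization the median difference over these pairs was -0.01. The weighted distance kept its sign, at 0.00194 with a pseudocount of 5.

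Calls over the pairs in both lists numbered 3; they were 0 after quantile normalization, 7 with a pseudocount of 0.1, 0 with a pseudocount of 5, 36 in a fit on all 10 libraries (2 higher in DM HSPC), and 0 to 23 with 1 library left out. Over pairs at 5 or more in both groups, scores of 7 or more gave 1 call. The 116 promoter calls became 10 in a fit on all 10 libraries, 17 with scores of 7 or more, 0 with at least 1 pair per bait, 17 with at least 10 pairs, and 0 to 92 with 1 library left out. Of the 20 named promoters, 4 were still called without DM replicate 1 and 0 without DM replicate 2. All 20 named promoters kept their direction where they could be fitted. They were chosen with non-overlapping groups and the same direction after quantile normalization. Neither that setting nor a left-out library could therefore reverse them. Over groups of results the balance did turn: with equal lists neutrophils had slightly more baits (4,113), and after quantile normalization 44 of 86 called promoters were higher in neutrophils.

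The replicate numbers were not taken to pair the samples: deviations of same-numbered libraries had a correlation of 0.079. With the replicate block, 248 pairs of both lists were called (38 higher in DM HSPC, 210 lower), 201 pairs at 5 or more in both groups (140 and 61), and 159 promoters. Depth is unknown and limits all values.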
